A study of Homo sapiens with 20 samples.

Results

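A poised enhancer is held ready by Polycomb marks in pluripotent cells, and the gene it serves is switched on only in later development. A group of 638 contacts of such elements was examined that was present at the start of the exit from naive pluripotency and was no longer called at its end. They were chosen by their scores from 766138 deposited contacts, of which 182303 joined fragments of the same chromosome. A member joined fragments of the same chromosome, scored 5 or more in naive cells and at day 1, and scored under 5 at day 10 and at day 14. The word lost is used here for this pattern of scores alone.

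The contacts came from Poised Enhancer Capture Hi-C of 20 libraries in 10 conditions, with 2 libraries per condition. Cells of HNES1, an embryonic stem cell line derived in the naive state, were first taken as naive cultures kept on mouse feeders with the MEK inhibitor PD0325901, LIF, Gö6983 and XAV939. The line was taken again after 1, 3, 5, 7, 10 and 14 days of transition to the primed state in N2B27 medium with XAV939. Day 14 cells were differentiated to definitive endoderm (DE) with Activin A, CHIR99021, FGF2, PI-103, BMP4 and LDN193189, or to neuroectoderm (NE) with A8301 and LDN193189. The DE protocol is cut off in the labels, so its list may be incomplete and does not mean that all were added together. NE cells were sorted for CD56 and against EpCAM. H9, an established primed embryonic stem cell line grown in mTeSR-E8, was the tenth condition. Naive cells, the days of transition, DE and NE came from HNES1 alone. H9 differed from day 14 cells in cell line and medium, which cannot be told apart from state. Cell types could not be checked against marker genes because no expression was measured.

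The naive state resembles the epiblast before implantation, and the primed state the epiblast after it. In primed cells Polycomb complexes mark many developmental genes, and marked regions can meet in the nucleus over long distances. HOX genes, which set position along the body axis, lie in clusters that are well known for such contacts. The assay captures a restriction fragment with the element, called the bait, and reads what was ligated to it, called the other end. The CHiCAGO score of a contact is high where more ligations were found than distance and fragment coverage lead one to anticipate, and a contact with a score of 5 or more is counted as called here. Each condition had 1 score for both libraries, so replicate spread could not be measured and conditions could not be tested against each other. Depth per library was not given in the file, and the 95% Wilson intervals cover counting error only. Contacts are not replicates of a condition, and members that share a bait or neighbour each other are not independent.

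Members at gene starts are shown by sequence because a bait or other end there ties the contact to a named gene. The file held no sequence of the captured fragments themselves. The following windows run from 250 bases before to 50 after a gene start (RefSeq, GRCh38.p14), 5′ to 3′ on the gene's strand, with CG dinucleotides in capitals. A single member joined the gene starts of HOXA9 and HOXA2, so both are given. PDGFRA lies at the other end of a bait with 3 members, and PCDH12 at the other end of a contact with a score of 14.7 in NE. The PDGFRA window is at a start inside the annotated span of the gene. No annotated end of PDGFRA lay within 1 kb of that other end. PDGFRA and PCDH12 were picked for display after their values were seen.
HOXA9 (chr7:27165488-27165787, minus strand): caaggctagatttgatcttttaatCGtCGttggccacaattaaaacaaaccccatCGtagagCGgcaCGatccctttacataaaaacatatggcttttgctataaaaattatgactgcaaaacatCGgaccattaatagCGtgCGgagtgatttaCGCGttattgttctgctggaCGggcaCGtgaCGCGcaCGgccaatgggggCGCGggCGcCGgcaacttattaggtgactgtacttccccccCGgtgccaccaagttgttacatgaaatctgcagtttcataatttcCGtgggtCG
HOXA2 (chr7:27102634-27102933, minus strand): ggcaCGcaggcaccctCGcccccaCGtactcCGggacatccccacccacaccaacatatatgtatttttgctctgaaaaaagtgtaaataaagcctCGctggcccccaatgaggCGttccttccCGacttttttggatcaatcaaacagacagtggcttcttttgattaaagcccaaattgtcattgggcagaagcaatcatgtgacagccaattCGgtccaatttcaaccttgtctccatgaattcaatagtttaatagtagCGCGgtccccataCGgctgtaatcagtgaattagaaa
PDGFRA (chr4:54233710-54234009, plus strand): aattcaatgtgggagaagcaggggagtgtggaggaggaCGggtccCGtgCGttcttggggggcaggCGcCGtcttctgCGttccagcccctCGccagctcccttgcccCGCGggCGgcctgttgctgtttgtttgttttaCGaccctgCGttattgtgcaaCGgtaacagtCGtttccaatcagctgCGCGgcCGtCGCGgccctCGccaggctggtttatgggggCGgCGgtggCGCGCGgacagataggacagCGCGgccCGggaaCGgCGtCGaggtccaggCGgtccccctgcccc
PCDH12 (chr5:141958153-141958452, minus strand): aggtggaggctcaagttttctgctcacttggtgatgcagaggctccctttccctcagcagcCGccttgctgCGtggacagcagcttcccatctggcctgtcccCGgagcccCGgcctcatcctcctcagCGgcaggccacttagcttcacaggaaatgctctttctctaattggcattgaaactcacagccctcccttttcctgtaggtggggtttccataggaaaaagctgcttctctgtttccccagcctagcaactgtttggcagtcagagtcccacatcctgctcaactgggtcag
The windows of HOXA2, PDGFRA and PCDH12 lay wholly inside the other end, and 228 of 300 bases of the HOXA9 window lay inside the bait. CG dinucleotides numbered 22 at HOXA9, 11 at HOXA2, 32 at PDGFRA and 5 at PCDH12, against a median of 21 over 22116 windows of protein-coding genes. In all, 66 such windows overlapped a member's bait or other end, and 41 of them (62.1%) held 15 or more CG, against 62.2% of all windows. The DpnII cutting site GATC was found in 27 of the 66 (40.9%) and in 39.99% of all windows, read on the strand shown, which is the same on the other strand. By these counts the gene starts in the members lay close to gene starts at large.

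The scores that chose the members were mostly close to the threshold. The lower of a member's naive and day 1 scores had a median of 5.50 (quartiles 5.19 and 6.01, highest 10.8), and 478 of the 638 (74.9%) had it under 6. The higher of the day 10 and day 14 scores had a median of 2.94 (quartiles 1.66 and 4.00). It was under 3 in 323 members, at 4 or more in 161, and 34 members were at 0 on both days. Loss therefore ranged from a score of 0 to one just under the threshold. Just inside it lay a contact beside DMBX1 on chromosome 1 and another of a bait 1714 bp from ATOX1, each with a higher late score of 4.996, and one near TPT1 on chromosome 13 with a lower early score of 5.001. Just outside lay a contact between IER5 and MR1 with a higher late score of 5.01, and one near IHH, a hedgehog ligand gene, with a lower early score of 4.9998.

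**Figure D1:**
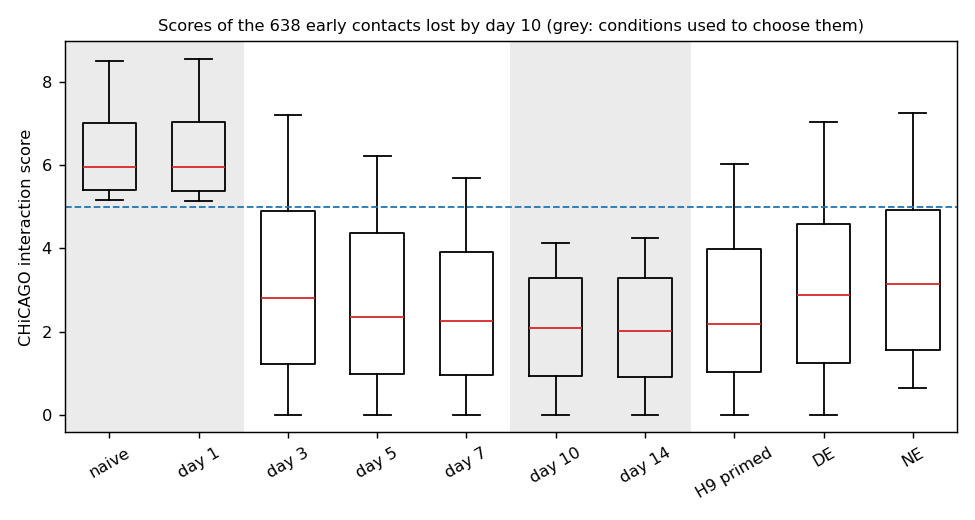
CHiCAGO score (vertical axis, no unit) of the 638 members in the 10 conditions; boxes give quartiles, red lines medians, whiskers the 10th and 90th percentiles, the dashed line the threshold of 5, and grey marks the conditions that chose the members. The medians are 5.96 and 5.97 in naive cells and at day 1, 2.80 at day 3 and 2.18, 2.88 and 3.14 in H9, DE and NE.

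Calls at the days between were not used by the rule, which fixed the shares at the other days of the transition. At day 3, 157 members (24.6%, interval 21.4 to 28.1) were called, against 12.4% of all contacts within chromosomes. The share was 18.2% (15.4 to 21.4) at day 5 and 14.4% (11.9 to 17.4) at day 7, where all contacts had 11.7% and 10.2%. Median scores were 2.80, 2.34 and 2.25 on these days. Every member has at least 2 calls by choice while other contacts need only 1, so a share above that of all contacts is no mark of the members. At none of the 3 days were 370 members called, 92 were called at day 3 only, 53 at day 5 only and 41 at day 7 only, and 15 at all of them. Over at least 1 of the 3 days the share was 42.0% (38.2 to 45.9), against 32.1% of all contacts. Most members thus had their last call of the transition at day 1.

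In the conditions after or beside the transition some members were called again. H9 called 103 (16.1%, interval 13.5 to 19.2; all contacts 13%), DE 146 (22.9%, 19.8 to 26.3; all contacts 16.2%) and NE 157 (24.6%, 21.4 to 28.1; all contacts 17.9%). At least 1 of the 3 called 268 members (42.0%), against 43% of all contacts. All 3 called 29 members (4.55%, 3.18 to 6.45), against 0.552% of all contacts. The share was 6.79% for contacts gained late and 27.1% for early contacts still called late, both described below. NE alone called 70 (11.0%, against 15% of all contacts), DE alone 56 (8.78%, against 13.4%) and H9 alone 33 (5.17%, against 10.9%). In the same order, contacts gained late had 11.0%, 8.67% and 9.25%, and early contacts still called late 10.6%, 7.18% and 7.00%. Members called at day 3, 5 or 7 numbered 268, and of these 26.1% were called in H9, 34.7% in DE and 39.2% in NE. Of the 370 others the shares were 8.92%, 14.3% and 14.1%. Contacts gained late had a split in the same direction, as H9 called 39.8% of those called at day 3, 5 or 7 and 15.3% of the rest. Over all contacts H9 called 6.005% and 16.4%, where a contact is listed only if called at least once. In all, 267 members (41.8%) were called in none of the 6 conditions that the rule left free, against 29.8% of all contacts and 36.7% of those gained late. Members are listed through their early calls. Contacts called neither early nor late are listed only through a call in these 6 conditions. A gap from all contacts here, or in the shares of 1 condition alone, is therefore no mark of the members.

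Contacts of the opposite course, called at day 10 and day 14 but under 5 in naive cells and at day 1, numbered 854. H9 called 25.2% of them (22.4 to 28.2), DE 25.4% (22.6 to 28.4) and NE 29.2% (26.2 to 32.3). The share in H9 was thus 16.1% for contacts lost and 25.2% for contacts gained late, and the shares in DE and NE lay closer together. Early contacts that were called at day 10 or day 14 numbered 557, and H9 called 48.8% of them, DE 55.1% and NE 62.8%. Of all 1195 contacts called in naive cells and at day 1, 638 were lost by this rule. No test between these sets was run.

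**Figure D2:**
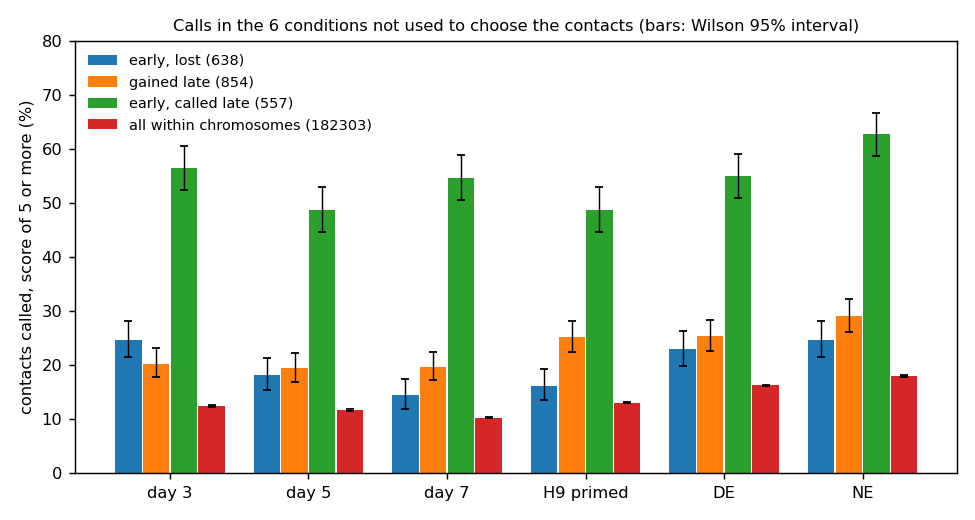
Share of contacts with a score of 5 or more (percent, vertical axis) in the 6 conditions that did not choose the members, for 4 sets of contacts; error bars are Wilson 95% intervals. The lost contacts lie at 16.1% in H9 and the contacts gained late at 25.2%, while the early contacts still called late lie at 48.8%.

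Members spanned a median of 176 kb (quartiles 109 and 256 kb), from 4.28 kb to 1036 kb. The medians were 162 kb for early contacts still called late, 171 kb for contacts gained late and 228 kb for all contacts. Under 100 kb lay 136 members (21.3%), and over 500 kb lay 19 (2.98%, against 9.72% of all contacts). No member was a contact from bait to bait. A count of 0 of 638 allows a share of up to 0.470% by the limit of 3 counts and 0.599% by the Wilson interval. The share was 1.31% over all contacts, 0.585% in the contacts gained late and 1.44% in those still called late. Baits had a median length of 648 bp and other ends of 5268 bp.

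Members fell on every chromosome with contacts except Y and the mitochondrial one. Chromosome 12 held 71 (11.1%, interval 8.92 to 13.8), against 7.20% of all contacts, 12.2% of those gained late and 13.5% of those still called late. Of the 71, 17 (23.9%) had their bait within 300 kb of the HOXC cluster, against 10.9% of all contacts on the chromosome, 26.0% of those gained late and 24.0% of those still called late. Chromosome 2 held 70 (11.0%, 8.78 to 13.6), against 7.90%, 7.96% and 7.36% in the same sets. Chromosome X held 2 (0.313%, 0.0860 to 1.14), against 1.64% of all contacts, 0.585% of those gained late and 0.359% of those still called late.

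The baits of the members also had contacts that were not lost. The 638 members had 573 baits, 515 of them with 1 member, 51 with 2 and 7 with 3. Without the members, these baits had 2.28 called contacts each in naive cells, 2.31 at day 1, then 2.85, 2.75 and 2.15 at days 3, 5 and 7. They had 2.28 at day 10, 2.43 at day 14, and 2.73, 3.33 and 3.66 in H9, DE and NE. Removing the members takes 638 calls from naive cells and from day 1 and none from the late days, by the rule. With the members the baits had 3.39 and 3.43 called contacts each early, so no order of the early and late days is read from these numbers.

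Neighbouring fragments give a further reading that the rule did not use. Other contacts of the same bait with an other end within 10 kb of a member's were listed for 521 members and numbered 1215 without the members themselves. They were called in 20.3% in naive cells (interval 18.2 to 22.7), 18.9% at day 1 (16.8 to 21.2), 27.1% at day 3, and 23.0% at day 5. The shares were 17.6% at day 7, 18.1% at day 10 (16.0 to 20.4) and 18.8% at day 14 (16.7 to 21.1), and 20.1%, 27.2% and 29.5% in H9, DE and NE. The intervals of the early and late shares of the neighbours overlapped. With members kept among the neighbours (1241 contacts) the shares were 22.0% and 20.6% early and 17.7% and 18.4% late. Leaving members out removes neighbours that were called early and not late, and keeping them adds such neighbours by choice, so neither set of values is free of the choice of members. For contacts gained late the 1706 neighbours had 17.1% and 16.8% early, 19.2% and 24.3% late, and 26.4% in H9. Where a call within 10 kb at day 10 or day 14 is taken as the same contact, 361 of the 638 remained lost.

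**Figure D3:**
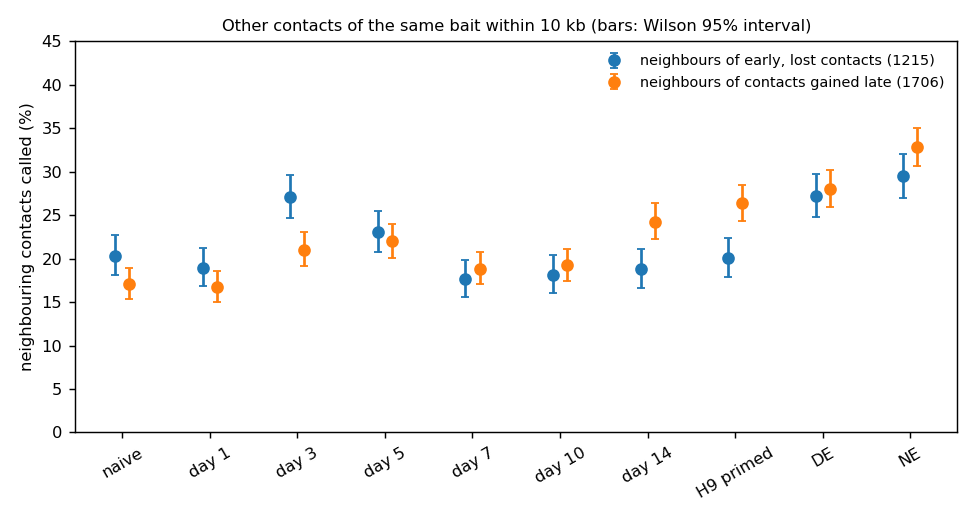
Share of neighbouring contacts (same bait, other end within 10 kb, the sets themselves left out) with a score of 5 or more (percent, vertical axis) in the 10 conditions; error bars are Wilson 95% intervals. Neighbours of the lost contacts lie at 20.3% in naive cells and 18.8% at day 14, and neighbours of the contacts gained late at 17.1% and 24.3%.

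A protein-coding gene was linked to a member where an annotated end of the gene lay within 1 kb of the bait or other end. That held for 187 members (29.3%), against 30.3% of all contacts, with 134 at the bait and 79 at the other end. Baits of 320 members and other ends of 350 overlapped the span of a gene, and in 87 both ends lay in the same gene. The annotation gave no exons, so exon and intron could not be told apart.

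Of 13 gene lists, HOX genes took part in 12 members (1.88%, interval 1.08 to 3.26), against 0.696% of all contacts, and 11 of the 39 HOX genes were among them. The contacts gained late had 17 (1.99%) and those still called late 5 (0.898%). Other developmental transcription factor genes took part in 4 members (0.627%, against 1.26%), and primed pluripotency, general pluripotency and signalling genes in 1 each. In all, 19 members had a gene of any list, a share of 2.98% (1.91 to 4.60) against 3.6% of all contacts, 5.74% of those gained late (4.37 to 7.505) and 2.87% of those still called late. By this rule of gene ends, the lists for Polycomb subunits, mesoderm, naive pluripotency, neural crest, housekeeping, definitive endoderm, trophectoderm with amnion, and neuroectoderm had 0 members. These 8 lists had between 0.00713% and 0.423% of all contacts, which is below the 0.470% that a count of 0 allows, so no shortage could be seen at this number of members. Spans of genes on some of these lists still overlapped member fragments, among them OTP, MEIS2, GATA4, PAX2, PAX3, ETS1 and PCGF5.

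The HOXC cluster on chromosome 12 held 7 of the 12 HOX members. HOXC11, a gene of posterior patterning (53973126 to 53977643), had its 3 members from 1 bait (53975896 to 53978215) that overlaps the gene's end. The contact with an other end of 54208156 to 54213264, 17678 bp from CBX5, which encodes a heterochromatin protein, scored 6.66 in naive cells, 17.5 at day 1, then 13.4, 5.51 and 6.08 at days 3, 5 and 7. Its scores were 2.32 at day 10, 2.26 at day 14, and 4.96, 1.13 and 11.997 in H9, DE and NE. This was the highest day 1 score among the members, and NE had it again while DE did not.

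From the same HOXC11 bait, the contact with 54198097 to 54203167, near the DNA repair gene SMUG1, scored 5.13, 10.7, 5.52, 7.83 and 6.01 from naive cells to day 7. It scored 2.28 at day 10, 1.00 at day 14, and 3.57, 5.26 and 5.46 in H9, DE and NE. Both contacts were thus called on 5 successive sampling days and on neither late day. The third ran the other way, to 53766124 to 53771128, 38672 bp from CALCOCO1, with 6.38, 5.66, 4.14, 5.18 and 2.07 up to day 7, then 1.02 and 2.15, and 7.54 in H9, 3.73 in DE and 4.12 in NE. Over all its contacts within chromosomes this bait had 5 called in naive cells, 13 at day 1, 7, 11 and 3 at days 3, 5 and 7, then 3 at day 10 and 5 at day 14, and then 10 in H9, 19 in DE and 7 in NE.

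Other HOXC baits met the same stretch beyond the cluster. A bait at HOXC6, a gene of thoracic patterning, joined 54208156 to 54213264 with scores of 14.5, 8.56, 6.44, 7.82 and 17.3 from naive cells to day 7. It had 4.04 at day 10, 3.68 at day 14, and 5.95, 5.22 and 3.61 in H9, DE and NE. A bait at HOXC5 joined 54198097 to 54203167 with 6.07, 8.19, 8.00, 1.05 and 1.59, then 3.06 and 1.33, and 9.03 in H9, 4.01 in DE and 2.50 in NE. Seen from the far side, a bait 8837 bp from SMUG1 (54197822 to 54198096) joined the other end at HOXC10 (53986411 to 53991439) with 6.42 and 7.85 early, 1.20 and 2.78 late, 11.5 in H9, 2.75 in DE and 1.16 in NE. H9 called the contacts of HOXC5, HOXC6 and HOXC10, and NE called those of HOXC11 on this side. DE called the contact of HOXC6 (5.22) and that of HOXC11 near SMUG1 (5.26). A contact of an other end at HOXC13 with a bait 54460 bp from CALCOCO1 scored 5.43 and 10.8 early, 2.57 and 3.22 late, 0 in H9, then 6.30 in DE and 9.24 in NE.

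With members grouped where both ends lay within 50 kb of another's, which was done after the values were seen, 6 members joined HOXC12, HOXC11, HOXC10, HOXC6 and HOXC5 to the stretch at SMUG1 and CBX5. The 173 other listed contacts between these sides had 28 calls in naive cells, 38 at day 1, then 54, 39 and 38 at days 3, 5 and 7, and 38 and 43 late. H9 had 39, DE 62 and NE 70. Some of the other contacts were called in each condition, and whether these were the same pairs was not examined.

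The HOXA cluster on chromosome 7 held 4 HOX members. A bait at HOXA9 (27164881 to 27165715), a gene of posterior patterning, joined a fragment with the start of HOXA2 and within 1 kb of the end of HOXA3 (27101770 to 27106229), 61.3 kb away in the cluster. The start sequences of HOXA9 and HOXA2 are those printed above. It scored 6.06 in naive cells, 7.13 at day 1, then 11.4, 15.4 and 4.91 at days 3, 5 and 7. The scores were 3.49 at day 10, 4.22 at day 14, and 8.42, 2.00 and 2.90 in H9, DE and NE. Its peak was thus at day 5, and of the 3 conditions outside the transition only H9 called it. Over all contacts linked to the gene, HOXA9 had 6 and 7 calls early, 6 at day 10 and 17 at day 14. HOXA2 had 4 and 10 early and 5 and 18 late, and HOXA3 had 1 and 10 early and 6 and 19 late.

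The other 3 HOXA members ran out of the cluster into SKAP2, a gene for an adaptor protein of immune cells. A bait at HOXA5 (27143529 to 27144067) joined 26849794 to 26855071 with 7.51, 5.97, 8.57, 5.51 and 1.36 up to day 7, then 1.27 and 4.42, and 4.65, 8.11 and 5.66 in H9, DE and NE. The same bait joined the adjacent fragment 26844412 to 26849793 with 5.91, 7.64, 2.49, 7.10 and 2.98, then 0 and 2.79, and 1.33 in H9, 2.37 in DE and 5.68 in NE. A bait at HOXA4 joined 26864114 to 26869217 with 5.56, 6.68, 5.18, 3.02 and 1.06, then 0 and 4.16, and 1.09, 0 and 1.92 in H9, DE and NE. A bait inside SKAP2 (26857731 to 26858403) showed the same pair of regions from the other side, with an other end in the span of HOXA3. It scored 7.01, 7.26, 18.5, 6.08 and 4.56 up to day 7, 1.14 and 2.26 late, 8.53 in H9, 1.94 in DE and 11.4 in NE. All 5 members of this pair of regions scored under 5 from day 7 on, up to day 14. The 46 other contacts between the sides had 11 and 15 calls early, 9, 11 and 10 at days 3, 5 and 7, 6 and 8 late, 11 in H9, 8 in DE and 9 in NE.

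On chromosome 2 the bait at HOXD9 (176123515 to 176123952), a gene of limb and trunk patterning, joined 176534374 to 176540870 with 6.82 and 8.93 early. Every later score was lower, with 1.17, 0 and 1.39 at days 3, 5 and 7, 3.24 and 0 late, 0 in H9, 0.863 in DE and 2.10 in NE. Further members linked the region beside HOXD8 to a stretch beyond MTX2, 497 to 516 kb away, from both sides. The bait at 176652840 to 176653724 joined 176135491 to 176139934 with 6.76, 6.65, 6.61, 2.91 and 10.1 up to day 7, 2.56 and 1.60 late, 9.08 in H9, 3.97 in DE and 16.7 in NE, which was the highest NE score of all members. The bait at 176139935 to 176140286 joined 176637695 to 176644816 with 8.29, 8.52, 9.76, 3.68 and 1.99, then 0 and 3.72, and 6.61 in H9, 5.23 in DE and 14.7 in NE. In NE these contacts scored above their naive and day 1 values. A further contact between the same sides, from a bait 1526 bp from HOXD8, had 5.69 and 6.68 early and at most 2.72 in any other condition.

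**Figure D4:**
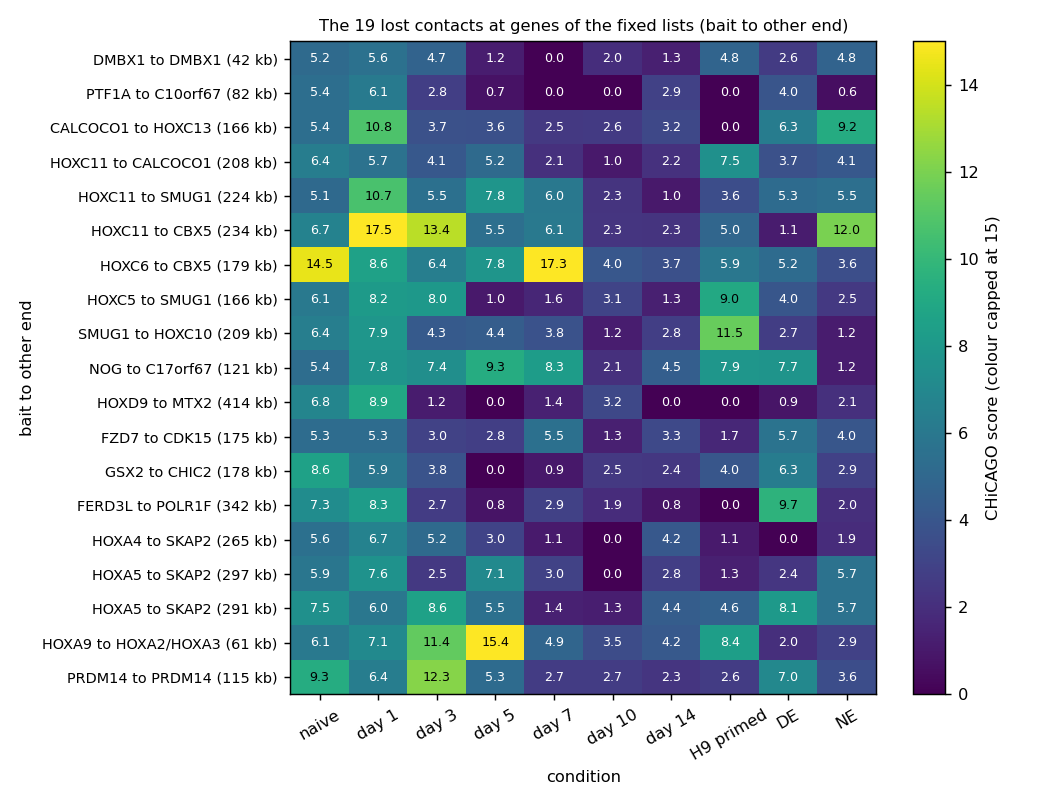
CHiCAGO scores of the 19 members with a gene of the lists, 1 row per contact (bait to other end, with the gene linked or, where none is, the nearest gene) and 1 column per condition; the colour is capped at a score of 15 and the number is the score. HOXC11 to CBX5 has 17.5 at day 1 and 11.997 in NE, and HOXD9 to MTX2 has 8.93 at day 1 and 2.10 in NE. CBX5 and MTX2 are the genes nearest these other ends and do not lie at them.

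Members at other genes of the lists were few and differed in where they were called again. NOG, which encodes a secreted BMP antagonist, overlaps a bait (56591920 to 56594400, chromosome 17) that joined a fragment 121 kb away with 5.38, 7.78, 7.40, 9.30 and 8.29 from naive cells to day 7. It scored 2.07 and 4.46 late, 7.86 in H9, 7.75 in DE and 1.20 in NE. PRDM14, a pluripotency gene on chromosome 8 (70051651 to 70071252), was the other end of a bait 115 kb away, with 9.30, 6.37, 12.3, 5.27 and 2.69. Its late scores were 2.67 and 2.30, and it had 2.65 in H9, 7.02 in DE and 3.57 in NE. This contact of NOG was thus called up to day 7 and that of PRDM14 up to day 5. Over all contacts linked to the gene, NOG had 4 and 4 calls early, 1 at day 10 and 3 at day 14. PRDM14 had 1 and 2 early, 1 at day 7, 3 at day 10 and 0 at day 14. FZD7, a WNT receptor gene, had a member into CDK15 with 5.31 and 5.28 early, 1.32 and 3.33 late, 1.70, 5.71 and 3.99 in H9, DE and NE. Over all its linked contacts FZD7 had 4 and 7 calls early, 5 and 10 late, and 21, 37 and 23 in H9, DE and NE.

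The 4 members at developmental transcription factor genes were those of GSX2, FERD3L, PTF1A and DMBX1. GSX2, a forebrain homeobox gene on chromosome 4, had 8.60 and 5.92 early, 3.84, 0 and 0.944 at days 3, 5 and 7, 2.48 and 2.41 late, and 3.98 in H9, 6.29 in DE and 2.89 in NE. FERD3L, a bHLH gene of the neural tube, had 7.32 and 8.29 early, 2.67, 0.783 and 2.90 next, 1.92 and 0.823 late, and 0 in H9, 9.72 in DE and 2.02 in NE. Of the 3 conditions outside the transition, DE alone called both of these contacts. Over all contacts linked to the gene, H9, DE and NE called 4, 5 and 5 for GSX2 and 6, 9 and 9 for FERD3L. PTF1A, a regulator of pancreas and cerebellum, had 5.40 and 6.13 early and at most 3.96 in any other condition. DMBX1, a homeobox gene of the brain, had 5.20 and 5.61 early and at most 4.83 elsewhere.

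The members with the highest early scores lay mostly outside the lists. By the lower of both early scores, the first was a contact over 309 kb from a bait 6836 bp from HLX, a homeobox gene of gut and blood development, on chromosome 1. It scored 10.8 in naive cells and 14.1 at day 1, 5.49, 1.36 and 1.40 at days 3, 5 and 7, 1.04 and 4.15 late, and 1.24 in H9, 2.19 in DE and 5.40 in NE. A bait 1714 bp from ATOX1, a copper chaperone gene, joined an end of SPARC, a matrix protein gene, on chromosome 5 with 10.4, 17.3, 16.9, 7.19 and 8.66 up to day 7. Its late scores were 4.996 and 3.39, so it was lost by a narrow margin, and H9, DE and NE had 5.78, 10.5 and 8.88. A contact between VWF, the clotting factor gene, and ANO2, a chloride channel gene, had 10.2, 9.16, 9.42, 9.29 and 10.7, then 4.87 and 2.02, and 7.41, 5.11 and 5.15 in H9, DE and NE. This contact with SPARC and that of VWF with ANO2 were thus called in every condition but the late days.

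A different course was found on chromosome 1 between the forkhead gene FOXD2 and TRABD2B. A bait at 47494944 to 47495261, 54253 bp from FOXD2, joined 47700589 to 47705867, 54661 bp from TRABD2B, a gene for a WNT-cleaving protease, with 10.8 and 10.3 early and 0.899, 1.18 and 0.966 at days 3, 5 and 7. The late scores were 3.23 and 1.04, H9 had 1.26, DE 3.81 and NE 5.58. The adjacent bait had 6.07 and 8.11 with the same fragment and 0 at days 3, 5 and 7, and a bait near TRABD2B had 5.32 and 8.51 with a fragment on the FOXD2 side and at most 1.58 on those days. In H9, DE and NE the adjacent bait had 0, 1.21 and 0.988, and the bait near TRABD2B had 0.947, 8.24 and 5.60. The 3 members shared these 2 sides, and only 2 other contacts were listed between them, with 2 calls in naive cells, 1 in DE and 0 elsewhere. MFAP3L on chromosome 4 had 3 members, of which the highest had 11.1 and 9.94 early, 1.72, 0 and 3.30 next, 3.01 and 1.88 late, and 4.08 in H9, 7.16 in DE and 2.30 in NE. Its other members had 5.02 at day 3 and 8.92 in H9, and 6.99 at day 5.

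Further members among the 10 highest early scores included a contact within SAMD4A, a gene for an RNA-binding repressor of translation on chromosome 14. It had 12.2 and 8.64 early, 6.49, 5.37 and 1.15 next, 3.63 and 0.862 late, and 2.76, 3.66 and 5.83 in H9, DE and NE. TLR5, the flagellin receptor gene, held a bait of a contact over 544 kb towards CAPN8, with 9.41 and 9.45 early, 1.20, 9.13 and 6.05 next, 3.67 and 1.23 late, 0.863 in H9, 8.25 in DE and 14.8 in NE. A contact near N4BP3 on chromosome 5 had 8.70 and 8.82 early and at most 4.52 in any other condition. A contact of ST7 on chromosome 7 had 8.68 and 13.0 early, 4.72 and 4.57 late, and 5.60, 4.37 and 5.53 in H9, DE and NE.

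PDGFRA, the gene of a receptor for platelet-derived growth factor, stood in a group of 5 members. A bait at 53905330 to 53906284 on chromosome 4, 103505 bp from CHIC2, had 3 members. The one with the PDGFRA start printed above (54232156 to 54237207) scored 7.20 and 8.98 early, 2.97, 0.739 and 6.01 next, and 1.66 and 3.09 late. H9, DE and NE had 3.83, 0.486 and 3.40. The fragment at 54218508 to 54223671 had 7.10 and 11.3 early, 7.71, 15.0 and 3.71 next, 4.81 and 4.31 late, and 2.69, 1.97 and 3.33. From the other side, the bait at 54217444 to 54218163 joined 53906483 to 53911702 with 11.9, 10.6, 6.14, 5.66 and 6.98 up to day 7, 3.02 and 4.73 late, and 2.92, 2.67 and 6.90. All 5 members here were under 5 in H9, and 1 each was called in DE and NE. The bait near CHIC2 had 15 called contacts in naive cells, 6 at day 1, 3 at day 10 and 7 at day 14, and the 45 other contacts between both sides had 16 and 10 calls early, 12 and 9 late, 11, 11 and 16 in H9, DE and NE.

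The largest group, of 7 members, lay on chromosome 11 between SIAE, a sialic acid esterase gene, and ESAM and MSANTD2, of which ESAM encodes an adhesion molecule of endothelium. Median scores there were 6.28 and 5.48 early, 2.78, 2.70 and 2.12 at days 3, 5 and 7, 2.56 and 3.38 late, and 3.55, 3.22 and 2.96 in H9, DE and NE. H9 called 0 of the 7, DE 1 and NE 2. The 39 other contacts had 9 and 3 calls early and 11 and 8 late, so other fragment pairs between these sides were called late. On chromosome 9, 5 members joined baits just beside ACO1, an iron-regulated aconitase gene, to RIGI and NDUFB6, with medians of 5.53 and 6.22 early and 2.23 and 2.43 late. The 20 other contacts there had 3 and 2 calls early, 1 at day 10 and 8 at day 14.

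Over all 21 groups of 3 or more members, which held 79 members, 10 were seen with baits on both sides. The 764 other contacts between their sides were called in 19.8% in naive cells (interval 17.1 to 22.7), 19.9% at day 1 (17.2 to 22.9), 17.7% at day 10 (15.1 to 20.5) and 24.5% at day 14 (21.6 to 27.6). Days 3, 5 and 7 had 26.2%, 22.8% and 21.2%, H9 had 23.7%, DE 27.9% and NE 31.4%. Leaving the members out removes contacts that the rule fixed as called early and not late. With them (843 contacts) the shares were 27.3% and 27.4% early, 16.0% at day 10 and 22.2% at day 14, so the order of day 14 and the early days turns with their inclusion. At OTP, which encodes a homeobox factor of the hypothalamus, 4 members reached 196 to 241 kb towards TBCA, with medians of 6.34 and 6.82 early, 2.71 and 2.29 late, 4.35, 0 and 0.974 in H9, DE and NE. The 103 other contacts of that pair of sides had 15 and 18 calls early, 10 and 34 late, 23 in H9, 5 in DE and 3 in NE. MEIS2, a partner gene of HOX proteins, had 3 members, and 77 other contacts with 10 and 10 calls early, 17 and 26 late, 28 in H9 and 25 each in DE and NE.

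**Figure D5:**
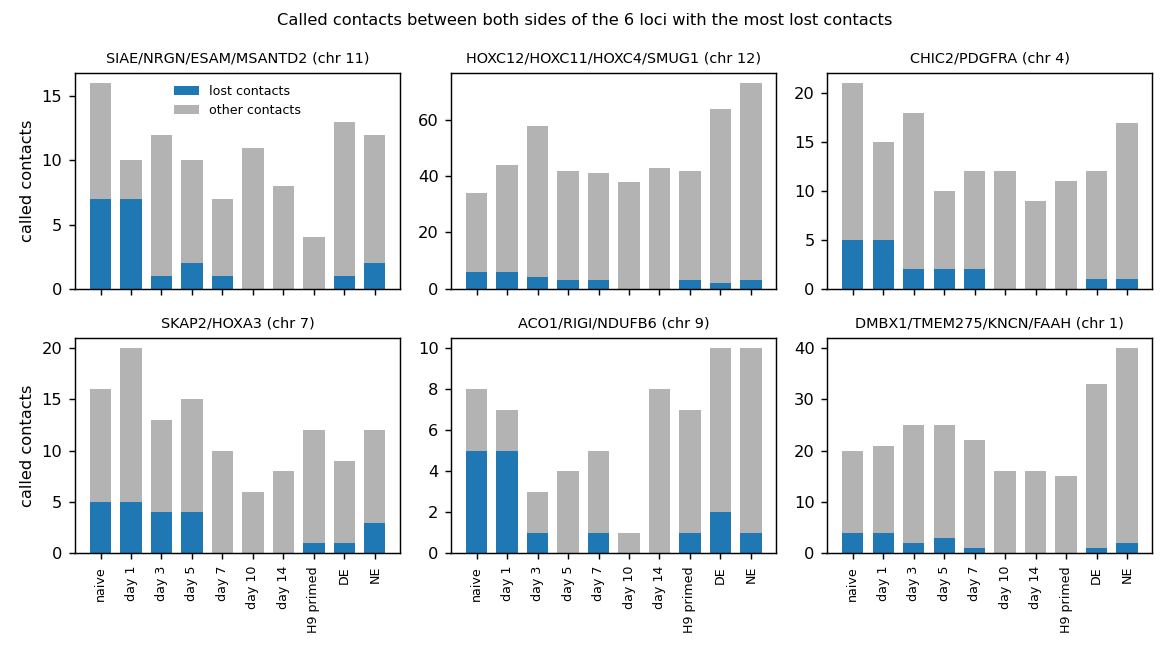
Number of called contacts (vertical axis) between both sides of 6 groups of neighbouring members, the 5 largest and, of 3 groups with 4 members, that at DMBX1, in the 10 conditions, with the members in blue and all other contacts in grey. At HOXC the other contacts number 28 in naive cells and 43 at day 14; at PDGFRA they number 16 and 9.

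Some members were stronger outside the transition than at its start. A contact on chromosome 3 between a bait 27663 bp from MASP1, a complement protease gene, and a fragment 5944 bp from SST, the somatostatin gene, scored 7.99, 9.43 and 7.76 in naive cells and at days 1 and 3. It was at 0 at days 5, 7, 10 and 14, and scored 29.8, 13.1 and 14.8 in H9, DE and NE. The pair of regions was also seen from a bait near SST, 446 bp away, with 6.14 and 5.03 early, 4.67 and 3.02 late, 2.84 in H9, 12.05 in DE and 1.15 in NE. A contact into FOXP4, a forkhead gene on chromosome 6, had 7.66 and 6.18 early, 1.07, 6.07 and 0 next, 0 and 1.05 late, and 17.1 in H9, 5.02 in DE and 16.5 in NE. Both stood among the 5 highest members in H9 and in NE.

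The other members at the top in H9 joined CADPS, a gene of vesicle release, to PTPRG (10.3 and 6.55 early, 12.2 in H9), lay at CARMIL1 (11.9 and 7.44 early, 11.97 in H9), or reached PSD3 on chromosome 8 (10.0 and 8.61 early, 12.3 in H9). In DE the highest was a contact of a bait beside ADAMTS8, a metalloprotease gene, with SNX19 on chromosome 11, with 5.81 and 7.79 early, 6.23, 6.39 and 7.54 next, 2.39 and 4.10 late, 2.50 in H9, 18.2 in DE and 9.82 in NE. A contact of HIBADH with a fragment 6624 bp from HOXA13 scored 9.39 and 5.64 early, 0.891 and 0 late, 6.39 in H9, 15.6 in DE and 10.8 in NE. HIPK2, a kinase gene, had 13.3 and 7.87 early, 4.31 and 4.66 late and 14.2 in DE. BARX2, a homeobox gene, had 10.4 and 6.50 early, 3.23 and 0 late, 13.6 in DE, 1.28 in H9 and 1.07 in NE. Of H9, DE and NE, this contact of BARX2 was thus called in DE alone. In NE the highest members after HOXD8 and FOXP4 included that of TLR5 and that with the start of PCDH12, an endothelial protocadherin gene, which had 5.38 and 7.67 early, 4.20 and 2.38 late, 7.11 in H9, 7.28 in DE and 14.7 in NE.

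Baits with 3 members were found outside these loci at NBPF3, FUCA1, PMP22 and the pair DNASE1L2 and ECI1. FUCA1, the gene of a lysosomal fucosidase on chromosome 1, had its start in the bait and reached PITHD1 with 5.75 and 6.39 early, 3.00 and 1.16 late and 1.99 in H9. H9 had 0 called contacts of this bait in all. The bait had 4 and 10 in naive cells and at day 1, 7 and 11 at days 3 and 5, 2 at day 7, 4 and 2 late, 2 in DE and 5 in NE. The bait in PMP22, a myelin protein gene on chromosome 17, had 13 and 24 called contacts early, 20, 17 and 7 next, 12 and 16 late, 11, 3 and 7 in H9, DE and NE. The bait at DNASE1L2 and ECI1 on chromosome 16 had 8 and 5 early and 5 and 8 late, and that in NBPF3 had 8 and 12 early and 7 and 5 late. Its contact with ECE1 over 206 kb was called in H9 at 10.4 after 6.91 and 5.07 early. Next to PLEKHA2 and HTRA4 on chromosome 8, 3 members from 2 adjacent baits reached TACC1, with medians of 8.35 and 6.50 early, 3.35 and 2.41 late, and 3.80, 5.09 and 6.45 in H9, DE and NE.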

How the data were processed

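Poised Enhancer Capture Hi-C scores of 10 conditions were analysed, each with 1 column for both libraries per the labels. Per the labels the authors deposited 1 CHiCAGO interaction score per fragment pair and condition; whether scores were scaled between conditions is not stated. The deposited distance column is in bp. GRCh38 is named in the submitters' processing notes. For the aligner, caller version, fragment binning, filters and depth the sources used here give nothing. Columns without a condition numbered 0.

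Members were taken by the score rule, with a call at 5 or more. Genes came from RefSeq (GRCh38.p14, 19962 protein-coding genes without readthrough genes, 11293 linked to a contact within chromosomes), linked by an annotated end within 1 kb, and otherwise named by the nearest span. The members, lists and loci were chosen with earlier results of these data known. Named members were the 10 with the highest lower early score, those at list genes, the 5 highest in H9, DE and NE, baits or genes with 3 or more members, and those nearest the threshold. Groups of neighbours and their other contacts were added after seeing the data. No test was run. The values of 2 members are not reported here. Counting was checked on simulated data. Alternatives were other thresholds and margins, equal numbers of calls, no bait-to-bait contacts, each pair once, late calls within 10 kb as kept, and other gene links. Python 3.11.15, pandas 2.3.3, numpy 2.4.6, scipy 1.17.1 and matplotlib 3.10.9 were used.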

Additional observations from a re-analysis of the deposited data

Results flagged for a closer look

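Contacts between chromosomes were outside the comparisons. Among 583835 of them, 46 had calls both in the naive state and on day 1, and 13 of these scored under 5 at day 10 and day 14. The opposite course was found in 12. These 13 were noted because they lie in data that the comparisons did not use. Whether they differ from scores that cross the threshold by noise was not tested. No control sample exists to set them against.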

How the results depend on the processing

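No paired analysis was possible because both libraries of a condition share 1 score column, and for the same reason no replicate could be left out. Of 65 values under 10 alternative settings, 27 stayed within the interval or within 1.5 times of the reported value and 38 did not. No difference was tested. The share in NE was above that in DE in the reported setting and below it at a threshold of 10 and with late scores under 3. Leaving out bait-to-bait contacts or counting each pair once altered none of the values, as no member is a bait-to-bait contact. The values under these settings could not move and are counted among the 27, so that count overstates how stable the values were.

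At a threshold of 3 there were 3176 members, of which 26.4% were called in H9, 33.6% in DE, 35.4% in NE and 54.5% at day 3, 5 or 7, and 120 had a gene of the lists. At a threshold of 10 there were 15 members, with 26.7%, 60.0%, 40.0% and 53.3%, a bait-to-bait share of 13.3%, a median distance of 208 kb and 0 at list genes. With late scores under 3 there were 323 members, with 12.4%, 18.0%, 17.6% and 29.7%, a median of 195 kb and 10 at list genes. With late scores of 0 there were 34, with 5.88%, 8.82%, 17.6% and 14.7%, a median of 319 kb and 0 at list genes. With 18272 calls in every condition DE called 18.4% and NE 18.8% of 645 members. With late calls within 10 kb taken as kept there were 361 members, with 10.5%, 15.8%, 17.2% and 31.6%, and 10 at list genes. Without widening, 11 members had a list gene, and with 5 kb 58 had. Counts of members and of list genes differ by construction with the number of members; the cause of the changed shares and medians was not tested. The unknown depth of the libraries limits every score.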

Other observations

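Non-coding genes were not part of the lists. The hairpin of MIR615, a miRNA of the HOXC cluster, overlapped by 61 bases the HOXC5 bait whose contact with the stretch at SMUG1 scored 6.07 and 8.19 early and 9.03 in H9. MIR196A2, another HOXC miRNA, lay within 1 kb of the other end at HOXC10. An annotated end of HOTAIR, a long non-coding RNA gene of the cluster, lay within 1 kb of the HOXC11 bait with 3 members. These genes were looked up after the members were known.

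A member on chromosome 12 with a bait 92832 bp from TBX5, a gene of heart and forelimb development, scored 9.11 in naive cells and 5.21 at day 1 and was at 0 in the other 8 conditions. A member from a bait in GAD1, a gene of GABA synthesis on chromosome 2, to MYO3B scored 7.14, 12.5, 6.73, 5.35 and 5.30 from naive cells to day 7 and 0 on both late days, with 5.22 for H9, 3.90 for DE and 7.38 for NE. Both were chosen after their values were seen.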
